A study of Mus musculus with 2 samples.

Results

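Mir22, Mir132 and Mir212 are miRNA genes studied in cardiac hypertrophy, the enlargement of heart muscle cells under load. All 3 were found by symbol in GENCODE M21 among the 2202 miRNA genes measured, a rule that uses no measured value. The symbols were chosen with earlier results of these data known. The libraries came from whole hearts of female B6CASTF1/J mice, first-generation hybrids of C57BL/6 and CAST strains, aged 36 days. They form 1 group with n = 2, biological replicates 1 and 2, called heart 1 and heart 2, with no treatment and no mutation in the labels. The labels number them as different females, with separate biosample records under a shared donor code, and do not say what that code stands for. No group of stressed or hypertrophic hearts is part of the design, so the data give levels in the resting heart of a young mouse and the spread between 2 libraries.

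A miRNA gene is transcribed as a hairpin, from which either arm can be cut as a mature miRNA. The mature strand guides an Argonaute protein to messenger RNAs, mainly through its seed, bases 2 to 8 from the 5′ end. In mice, miR-22 is abundant in heart and skeletal muscle and is needed for the full hypertrophic response of the heart. The miR-132 and miR-212 genes form a cluster that promotes hypertrophy of mouse heart muscle cells and represses the transcription factor Foxo3, a brake on hypertrophy. Outside the heart, the cluster is best known in neurons, where the transcription factor CREB induces it.

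The 6 annotated mature arms are shown with the seed in capitals, because the seed is the main part that pairs with targets (RefSeq, GRCm38.p6, plus strand of chromosome 11).
mmu-miR-22-3p: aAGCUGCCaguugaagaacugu
mmu-miR-22-5p: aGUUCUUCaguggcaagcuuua
mmu-miR-132-3p: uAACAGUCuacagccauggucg
mmu-miR-212-3p: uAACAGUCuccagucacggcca
mmu-miR-132-5p: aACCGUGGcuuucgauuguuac
mmu-miR-212-5p: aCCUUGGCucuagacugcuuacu
The 3p arms of miR-132 and miR-212 have the same seed, AACAGUC. No other mature mouse miRNA in the RefSeq table carries that seed, and none carries the seed of either miR-22 arm. The 2 related 3p arms are identical over their first 9 bases and at 17 of 22 positions. Counted from 1 at the 5′ end, with the miR-132-3p base first, they differ by A10C, C14U, U17C, U20C and G22A. Their 5p arms have different seeds and are identical at 9 of the 22 positions compared. The miR-22-3p arm is identical to miR-132-3p at 6 of 22 positions and to miR-212-3p at 5.

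The hairpins are shown whole, with both mature arms in capitals, because a count in these tables belongs to the hairpin and not to an arm.
Mir22: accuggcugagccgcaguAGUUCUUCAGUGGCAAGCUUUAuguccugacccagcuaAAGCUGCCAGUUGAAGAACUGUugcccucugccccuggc
Mir132: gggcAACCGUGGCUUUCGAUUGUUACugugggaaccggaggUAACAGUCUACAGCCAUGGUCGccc
Mir212: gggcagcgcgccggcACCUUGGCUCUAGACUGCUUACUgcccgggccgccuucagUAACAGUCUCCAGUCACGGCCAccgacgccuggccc
Mir22 (ENSMUSG00000065529.1) spans 95 bases at chr11:75463716-75463810 on the plus strand of mm10. Mir132 (ENSMUSG00000065537.2) spans 66 bases at chr11:75173682-75173747, and Mir212 (ENSMUSG00000065590.1) 91 bases at chr11:75173388-75173478, both also on the plus strand. The G and C content was 55.8% for Mir22, 57.6% for Mir132 and 69.2% for Mir212. Folded alone, the hairpins had minimum free energies of -41.9, -37.2 and -41.5 kcal per mol, with 75.8%, 78.8% and 70.3% of bases paired. All 3 are thus stable hairpins by computation, and Mir212 is the richest of them in G and C.

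All 3 genes lie on the same strand of the same chromosome, but in 2 transcription units. Mir212 lies upstream of Mir132, with 203 bases between the hairpins, and both are in an intron of the non-coding gene 1700016P03Rik. Mir22 lies a further 289968 bases downstream, in an exon of both annotated transcripts of its non-coding host Mir22hg. The same bases also fall in an exon of 1 of 4 transcripts of the protein-coding gene Tlcd2. Within 500000 bases of these genes there are 3 other measured miRNA genes, Mir6926, Gm47300 and Mir3971, and none of them had a count in either library.

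Reads that map to several places are counted at no gene in these tables, which matters for miRNAs with several copies. The longest run that a member shares with any other of the 2202 annotated hairpins, on either strand, was 13 bases for Mir22, 11 for Mir132 and 12 for Mir212. Each is shorter than a mature miRNA, and no other gene in the RefSeq table has an identical mature arm. The rest of the genome was not searched. No read lay on the opposite strand of a member in either library, and the counts without regard to strand were the same as the sense counts.

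The count table of heart 1 holds 5606848 reads, 2074961 of them on miRNA genes in sense, and that of heart 2 holds 4990632 and 1766135. Levels are given in CPM, sense counts per 1000000 sense counts on miRNA genes, and 1 read is worth 0.482 CPM in heart 1 and 0.566 CPM in heart 2. Reads cover a mature miRNA and not the length of its hairpin, so levels were not divided by hairpin length, and the labels mention no molecular identifiers, so PCR copies may be counted. Among markers of heart muscle cells, Mir208a, Mir208b and Mir499 were all detected, at 6143 CPM in sum in heart 1 and 8701 CPM in heart 2. Markers of red blood cells set the libraries apart: Mir451a, Mir144 and Mir486 summed to 45890 CPM in heart 1, against 7589 CPM in heart 2.

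Mir22 was the most abundant of the 3. It had 30688 counts in heart 1 and 18573 in heart 2, or 14790 CPM in heart 1 and 10516 CPM in heart 2, with a mean of 12653 ± 3022 CPM (SD, n = 2). Its share of all miRNA counts was 1.48% (95% exact Clopper-Pearson interval 1.46 to 1.5) in heart 1 and 1.05% (1.04 to 1.07) in heart 2. Mir22 stood at rank 16 of 2202 in heart 1 and at rank 18 in heart 2, so by these counts it belonged to the leading genes. Reads that map to several places, 42.0% of the table in heart 1 and 39.8% in heart 2, enter neither share nor rank. Genes with several copies can thus stand too low beside Mir22. Of all counts on the 3 genes, it held 97.8% in heart 1 and 97.0% in heart 2.

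Mir132 was far less abundant than Mir22. It had 683 counts in heart 1 and 555 in heart 2, or 329 CPM (interval 305 to 355) in heart 1 and 314 CPM (289 to 342) in heart 2, with a mean of 322 ± 10.5 CPM (SD, n = 2). The 2 counting intervals overlap, and Mir132 ranked 96 in heart 1 and 101 in heart 2, in the upper part of the detected genes. Mir212 was scarce. It had 19 counts in each library, which is 9.16 CPM (interval 5.51 to 14.3) in heart 1 and 10.8 CPM (6.48 to 16.8) in heart 2, with a mean of 9.96 ± 1.13 CPM. The floor of 3 counts is 1.45 CPM in heart 1 and 1.70 CPM in heart 2, below either value. Mir212 ranked 257 in heart 1 and 259 in heart 2. All 3 members therefore passed the detection limit of 2 CPM in both libraries, as did 335 of the 2202 genes (15.2%). Of all 2202 genes, 1574 had no count in either library.

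**Figure D1:**
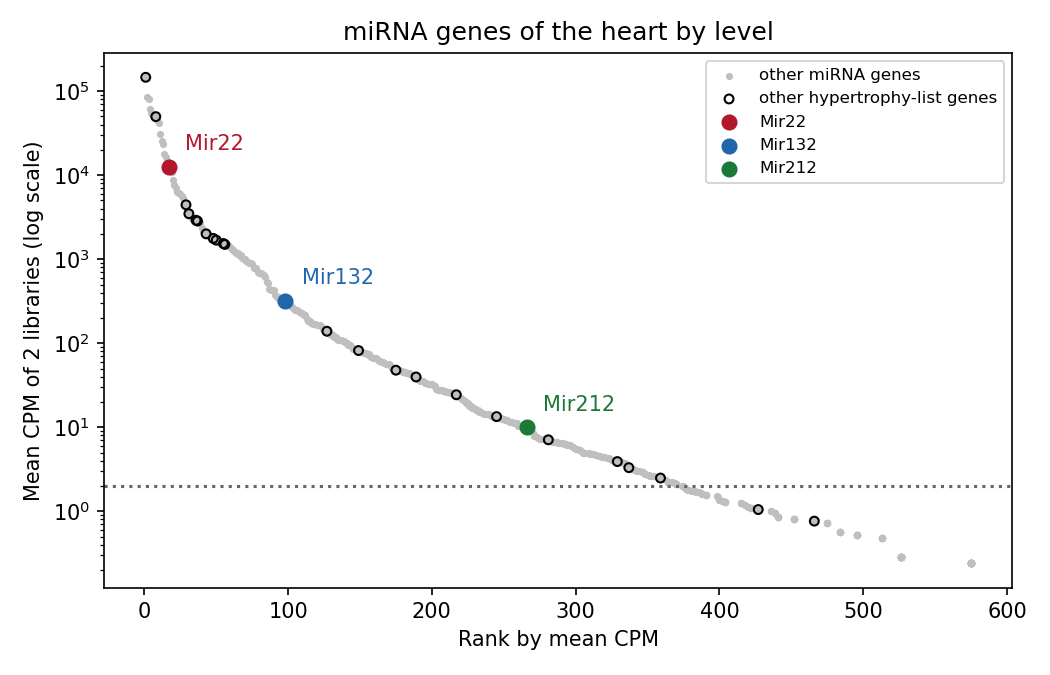
Each point is a miRNA gene with a count in either library, by its rank (x) and its mean CPM over the 2 libraries (y, log scale); open circles are the other genes of the hypertrophy lists and the dotted line is 2 CPM. Mir22 (rank 17, 12653 CPM) lies on the steep part of the curve, Mir132 (rank 98, 322 CPM) further down and Mir212 (rank 266, 9.96 CPM) in the tail.

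The order Mir22, Mir132, Mir212 was the same in both hearts, with no overlap between any of the 3. Within a library, ratios of counts do not depend on how the library is scaled. Mir132 exceeded Mir212 by 35.9 times (exact interval 22.8 to 60.1) in heart 1, and in heart 2 by 29.2 times (18.5 to 48.9), so the intervals overlap widely. Mir212 thus gave 2.71% of the reads of its cluster in heart 1 and 3.31% in heart 2, although the 2 hairpins lie side by side on 1 strand. Mir22 exceeded Mir132 by 44.9 times (41.6 to 48.5) in heart 1 and by 33.5 times (30.8 to 36.5) in heart 2, and these intervals do not overlap. These are ratios of reads: how efficiently each sequence is ligated into a library was not tested.

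The gap between Mir132 and Mir212 was set beside those of other neighbouring miRNA genes. The comparison was chosen after the values were seen and took consecutive genes of 1 strand, at most 1000 bases apart, with 100 CPM or more in the higher gene. It gave 46 such pairs, 34 of them with both genes detected. On mean CPM with 1 added, Mir132 exceeded Mir212 by 29.5 times, while the median over the 46 pairs was 22.5 times, and 19 pairs were more uneven. Of those 19, 12 hold a gene that was not detected. Among the 34 pairs with both genes detected, as Mir132 and Mir212 are, the median was 11.9 times and 7 pairs were more uneven. Several of the more uneven pairs, such as Mir29a with Mir29b-1, hold a gene with copies elsewhere, whose count can be too low.

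By mean level, the genes next to each member had ranges over the 2 libraries that overlapped its own. They were picked for nearness in mean CPM, so overlap was likely from the outset. Within a library they could lie apart: in heart 2 Mir30d had 18179 CPM and Mir22 had 10516 CPM. Mir30d (16273 ± 2696 CPM) and Mir99b (14897 ± 591) came just before Mir22, and Mir191 (11573 ± 1383) and Mir30a (10874 ± 1245) just after it (SD, n = 2 each). The range of each overlapped that of Mir22. Mir30c-1 (333 ± 13.6 CPM) and Mir200c (327 ± 146) came before Mir132, and Mir30b (318 ± 35.4) and Mir210 (297 ± 69.7) after it, all with overlapping ranges. Around Mir212 stood Mir3061, Mir103-2, Mir5100 and Mir106a, with Mir106a the lowest at 9.23 CPM, and each overlapped it too. Over both libraries together, by Euclidean distance of log2(CPM + 1), the nearest genes to Mir22 were Mir99b (0.46), Mir191 (0.54) and Mir30a (0.59). For Mir132 they were Mir30c-1 (0.13), Mir542 (0.18) and Mir30b (0.21), and for Mir212 they were Mir582 (0.10), Mir539 (0.16) and Mir3061 (0.20). With 2 libraries such likeness is one of level. It holds for these counts, since genes with copies, such as Mir30c-1 beside Mir30c-2, can lose reads that map to several places.

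The hearts were then compared gene by gene. The log2 ratio of heart 1 over heart 2, after TMM scaling in edgeR (a trimmed mean of the log ratios of all genes), was 0.66 for Mir22, 0.24 for Mir132 and -0.06 for Mir212. In linear terms Mir22 was 1.58-fold higher (exact interval 1.55 to 1.61) in heart 1, and Mir132 1.18-fold higher (1.05 to 1.32). For Mir212 the ratio was 0.957 (0.48 to 1.91), so a difference inside that interval was not detectable at 19 counts.

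An exact two-sided binomial test asked, gene by gene, whether counts were divided between the libraries as their sizes were, with Benjamini-Hochberg adjustment over 359 genes. It compares these 2 libraries beyond counting error, and not conditions. It called Mir22 and Mir132 higher in heart 1, 2 of the 3 members, where 24.2% of the 359 genes were called in that direction, 20.1% in the other and 44.3% in all. Counts as high as those of Mir22 make small differences pass, so the calls are set beside the spread at like levels. For Mir132 the adjusted p was 0.0104 by the exact binomial test, and for Mir212 it was 1. Scaling decided the call of Mir132: with library size alone its log2 ratio was 0.07 (adjusted p 0.575, exact binomial test), and with sizes computed without the 3 red blood cell genes it was 0.12 (adjusted p 0.245). Mir22 was called under those scalings too, at 0.49 and 0.55. TMM moves every log2 ratio up by 0.17 from library size alone. With TMM, 87 genes were called higher in heart 1 and 72 in heart 2, and with library size alone 67 and 103.

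The members were then set against genes of like level. Of 19 genes at 10000 CPM or more, 5 had a larger absolute log2 ratio than Mir22, and the median was 0.25. Of 70 genes from 100 to 1000 CPM, 43 had a larger one than Mir132 (median 0.32), and of 110 genes from 2 to 10 CPM, 95 had a larger one than Mir212 (median 0.67). The exact interval of Mir212 reaches past the median of its level in either direction, so its place among those genes is not settled at 19 counts. These ratios are on TMM sizes, and Mir22 was above the median of its level.

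**Figure D2:**
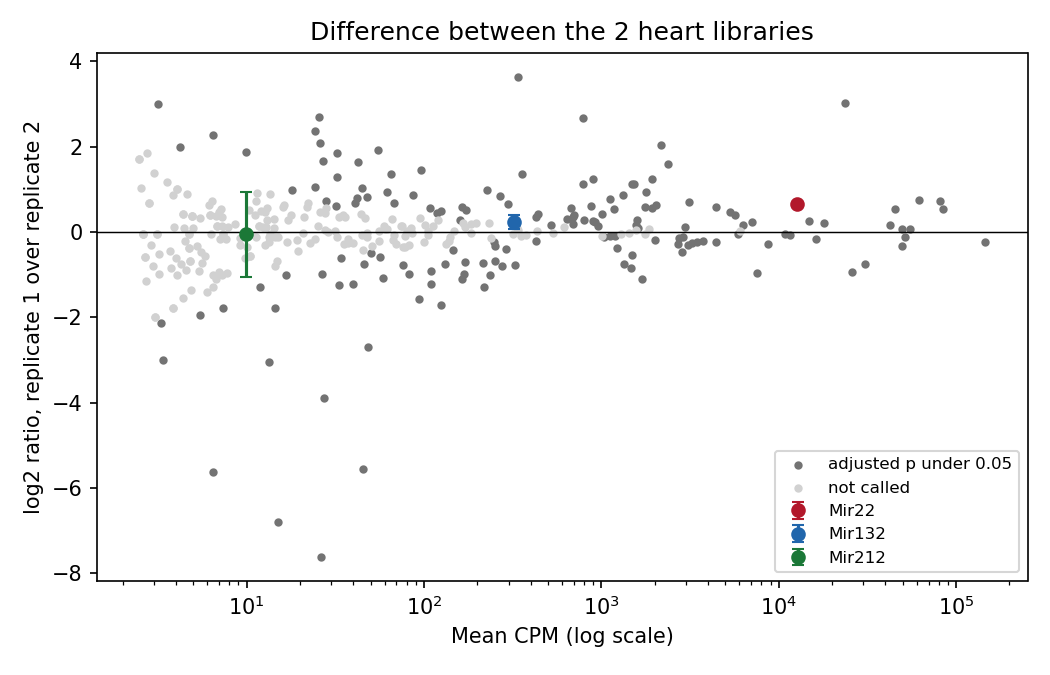
Each point is 1 of 359 tested genes, by mean CPM (x, log scale) and log2 ratio of replicate 1 over replicate 2 (y, TMM scaling); dark points have an adjusted p under 0.05, and bars on the 3 members are 95% exact intervals. Mir22 lies at 0.66, Mir132 at 0.24 and Mir212 at -0.06 with the widest bar.

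The higher level of Mir22 in heart 1 was not shared by the markers of heart muscle cells. Mir208a, in an intron of the alpha myosin heavy chain gene, had 3809 CPM in heart 1 and 5069 CPM in heart 2, and was 1.18-fold higher (1.15 to 1.22) in heart 2. Mir499, in a related myosin gene, had 2214 CPM in heart 1 and 3475 CPM in heart 2 and was 1.40-fold higher (1.34 to 1.45) in heart 2. Both kept that direction under every scaling tried. The count ratio of Mir22 to Mir208a was accordingly 3.88 (exact interval 3.79 to 3.98) in heart 1 and 2.07 (2.02 to 2.13) in heart 2. Mir132 was 0.0864 of Mir208a (0.0798 to 0.0935) in heart 1 and 0.0620 (0.0568 to 0.0676) in heart 2. In whole tissue, fewer cells of a type and less RNA per cell cannot be told apart.

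Markers of other cell types moved between the libraries as well. All 3 red blood cell genes were higher in heart 1, but by unlike amounts. Mir451a, at 41391 CPM in heart 1 and 5739 CPM in heart 2, was 8.11-fold higher (7.95 to 8.28) in heart 1. Mir144 was 4.1-fold higher (3.89 to 4.33) and Mir486 only 1.34-fold (1.26 to 1.43). The endothelial genes summed to 97020 CPM in heart 1 and 65810 CPM in heart 2, nearly all from Mir126a, which was 1.66-fold higher (1.65 to 1.67) in heart 1. Mir126b, listed as the other endothelial gene, lies on the opposite strand within the bases of Mir126a and had 1 count in each library. Both smooth muscle genes were detected and summed to 43120 CPM in heart 1 and 44230 CPM in heart 2. Mir145a had 1129 CPM in heart 1 and 1866 CPM in heart 2, 1.47-fold higher (1.39 to 1.55) in heart 2, while Mir143 changed sign between scalings (log2 ratio 0.16 with TMM, -0.01 with library size alone). All 4 leukocyte genes were detected, at 4121 CPM in sum in heart 1 and 5447 CPM in heart 2, and they did not move together. Mir142 had 500 CPM in heart 1 and 219 CPM in heart 2 and was 2.57-fold higher (2.28 to 2.89) in heart 1, the direction of Mir22. Mir150, Mir155 and Mir223 were called higher in heart 2, though Mir155 was not called with DESeq2 size factors. Their part in the difference of Mir22 and Mir132 was not tested.

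Since the miR-132 cluster is prominent in neurons, neuronal markers were set beside it. Of 9 neuronal genes, 3 were detected, and the list summed to 74.7 CPM in heart 1 and 190.2 CPM in heart 2. The defining genes Mir124a-1, Mir124a-2, Mir124a-3, Mir9-1 and Mir9-2 were at 0 in both libraries, and Mir9-3 had 2 counts in heart 1 and 1 in heart 2. Reads from the copies of miR-124 and miR-9 map to several places and are left out, so these zeros say nothing of how much mature miRNA was present. Mir128-1 (60.7 CPM in heart 1, 160 in heart 2) and Mir137 (10.1 CPM in heart 1, 23.2 in heart 2) were both called higher in heart 2. Mir132 had the opposite sign, but whether it was called depended on the scaling. Mir128-2, at 2.89 CPM in heart 1 and 6.23 CPM in heart 2, was not called. Mir128-1 and Mir128-2 are copies too, so reads that map to both are left out of these values. The part of nerve cells in the level of Mir132 was not tested. Mir206 of skeletal muscle had 3.37 CPM in heart 1 and 9.63 CPM in heart 2, and Mir122 of liver had 57.8 CPM in heart 1 and 31.7 CPM in heart 2.

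**Figure D3:**
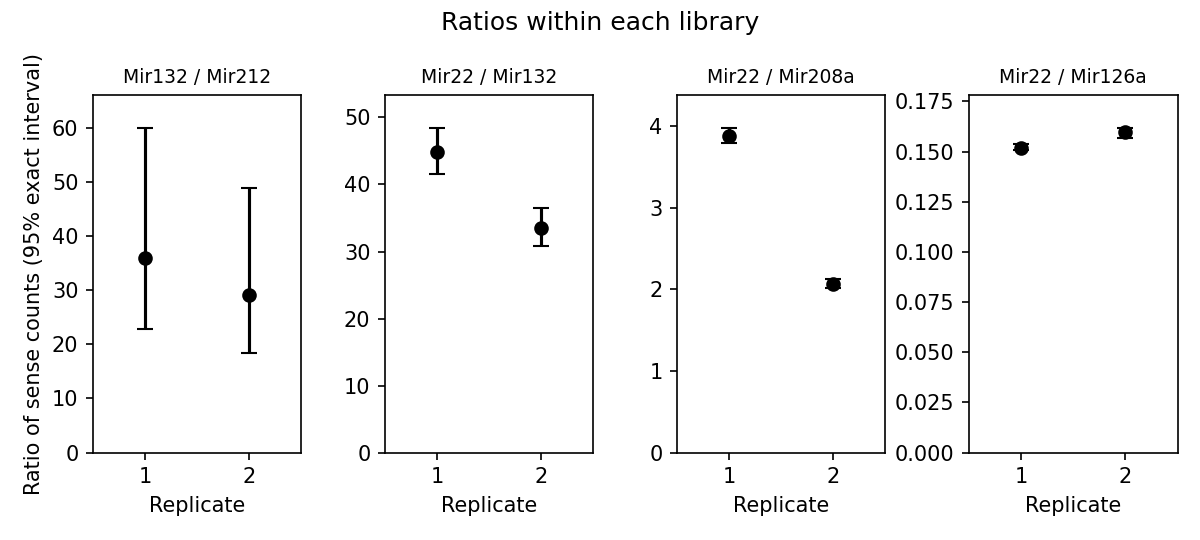
Ratios of sense counts within each library (y, from 0) for 4 pairs of genes in replicate 1 and replicate 2 (x), with 95% exact intervals as bars. The intervals of Mir132 over Mir212 overlap. Those of Mir22 over Mir132 lie apart (44.9 in replicate 1, 33.5 in replicate 2). So do those of Mir22 over Mir208a (3.88 in replicate 1, 2.07 in replicate 2). Mir22 over Mir126a, a pair chosen after the values were seen, was 0.152 in replicate 1 and 0.160 in replicate 2. Its intervals also lie apart.

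Other miRNA genes with published roles in hypertrophy of mouse or rat hearts, listed with earlier results of these data known, give the setting for these levels. Of 26 such genes, 19 were detected, against 15.2% of all measured genes, and only Mir378a and Mir23a had a higher mean than Mir22. Mir132 had 11 of the 26 above it and 15 below, and Mir212 had 17 above and 9 below. Among genes reported to promote hypertrophy, 12 of 13 were detected, with a median of 1770 CPM. Among those reported to restrain it, 7 of 13 were detected, with a median of 3.91 CPM. The second list holds the Mir1a, Mir133a, Mir26a and Mir9 copies, and the first the Mir199a copies, whose reads can map to several places. Reads that map to several places were 42.0% of the table in heart 1 and 39.8% in heart 2, and they count at no gene. The median of the second list can thus be far below the mature miRNAs. The places of the 3 members among the 26 hold for these counts, and not for the mature miRNAs of such copies.

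Of the promoting genes, Mir23a (47760 CPM in heart 1, 51598 in heart 2) was the highest. Mir208a, needed for the stress response of the mouse heart, came next, then Mir27b (3001 CPM in heart 1, 3955 in heart 2), Mir155 (2615 CPM in heart 1, 3190 in heart 2), known from immune cells, and Mir499. Mir328 had 1753 CPM in heart 1 and 2254 CPM in heart 2. Mir21a, best known for its role in heart fibroblasts, had 1635 CPM in heart 1 and 1899 CPM in heart 2. By these counts Mir22 was thus well above every promoting gene but Mir23a in both hearts. The Mir199a copies are among those genes, and their reads that map to several places are not counted. Mir195a of the miR-15 family (990 CPM in heart 1, 2383 in heart 2) and Mir221 (1983 CPM in heart 1, 1015 in heart 2) differed most between the hearts among these. Mir208b, in the beta myosin heavy chain gene that rises in hypertrophy, had 120 CPM in heart 1 and 157 CPM in heart 2, a lower level than Mir132. Of the restraining genes, Mir378a led with 125675 CPM in heart 1 and 166328 CPM in heart 2, and Mir98 of the let-7 family had 2029 CPM in heart 1 and 1045 CPM in heart 2.

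In the per-gene exact binomial test, 5 of the 21 tested list genes were higher in heart 1 and 11 in heart 2, where 24.2% and 20.1% of all tested genes were. Of 12 tested promoting genes, 3 were higher in heart 1 and 6 in heart 2 (2 and 9 with library size alone), and of 9 restraining genes 2 were higher in heart 1 and 5 in heart 2. Small differences pass in deeply counted genes, as many of these are. Median log2 ratios were -0.18 for promoting and -0.23 for restraining genes, beside 0.01 over all tested genes. Mir221 (log2 ratio 1.13), Mir98 (1.13), Mir199b (1.06) and Mir1a-2 (0.81) were called in the direction of Mir22 under every scaling tried. More list genes were called the other way under every scaling, from -3.05 for Mir26a-1 to -0.19 for Mir328 with TMM. Mir23a, Mir21a and Mir1a-1 changed sign between scalings.

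**Figure D4:**
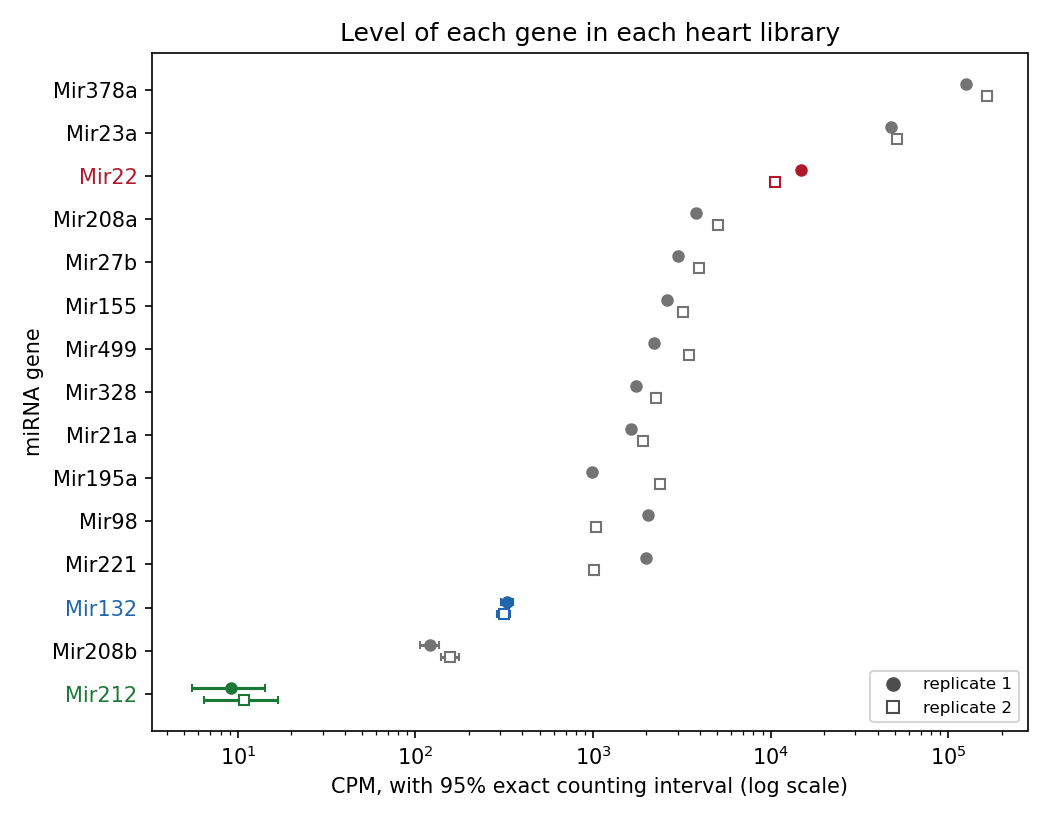
CPM of the 3 members (coloured) and of the 12 highest other list genes (grey) in replicate 1 (filled circles) and replicate 2 (open squares), on a log axis with 95% exact counting intervals, which are narrower than the symbols for most genes. Mir22 lies below Mir378a and Mir23a and is higher in replicate 1, the 2 values of Mir132 (329 CPM in replicate 1 and 314 CPM in replicate 2) nearly coincide, and those of Mir212 overlap within wide intervals.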

How the data were processed

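Small RNA libraries of 2 mouse hearts were used. Per the deposited notes, the values are counts over miRNA genes of GENCODE M21 on mm10, and the files show whole, unscaled counts in 3 columns: without regard to strand, sense and antisense. Neither aligner nor counting program is given in the sources used here. Rows that name no gene (multimapping, unmapped, outside genes) held 63.0% of reads in heart 1 and 64.6% in heart 2 and stayed out of library sizes. All 2202 gene IDs matched GENCODE M21. Hybrid mice carry CAST alleles, and their effect on mapping to mm10 was not examined.

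Sense counts were scaled to CPM. Ratios used TMM sizes (edgeR 4.0.16), with DESeq2 1.42.0 size factors as an alternative, and a prior count of 0.5. The DESeq2 factors came out equal for the 2 libraries, so that setting compared unscaled counts. The per-gene test was an exact binomial one, two-sided (scipy 1.17.1), for genes with at least 10 counts in all, adjusted by Benjamini-Hochberg and called under 0.05. With 1 group of 2 libraries there is no contrast for a quasi-likelihood test. Intervals are exact at the 95% level, floors are 3 counts, and both cover counting error only. Sequences came from RefSeq (GRCm38.p6, the build mm10), where all 3 members matched by symbol, and were folded with ViennaRNA 2.7.2. The test was checked on simulated data.

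Named genes were the members, the 2 genes on each side of each in level, the 3 nearest over both libraries, miRNA genes within 500000 bases, the 12 highest list genes and cell type markers; others were named after their values were seen. The members and lists were chosen with earlier results of these data known.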

Additional observations from a re-analysis of the deposited data

How the results depend on the processing

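Of 41 values under alternatives, 33 were judged unchanged. Log2 ratios had to keep their side of the threshold without a reversed sign, which let the 0.00 of Mir212 pass. Levels and ratios within a library had to move by less than the spread between the libraries. Numbers of genes only had to stay near the main number. Part of the 33 could not come out otherwise. With 2 libraries, a value from a single replicate always lies within the SD of the mean. Member counts without regard to strand equalled the sense counts, so ratios within a library could not move. The prior count does not enter the test. With library size over all reads, mean levels were 4597 CPM for Mir22, 117 CPM for Mir132 and 3.6 CPM for Mir212. With the counts without regard to strand they were 17577, 446 and 13.8 CPM, since reads at miRNA genes that face each other then leave the library size. Both change the denominator and leave the order of the 3 genes as it was. The log2 ratio of Mir132 was no longer called with library size alone (0.07) or with sizes without the red blood cell genes (0.12). That of Mir212, -0.06 in the main setting, was 0.00 with DESeq2 size factors, which came out equal for the 2 libraries, and -0.23 with library size alone. Without one replicate or the other, levels ranged from 10516 to 14790 CPM for Mir22, from 314 to 329 CPM for Mir132 and from 9.16 to 10.8 CPM for Mir212. The number of genes called was 159 of 359 in the main setting, 156 with DESeq2 size factors and 170 with library size alone. With at least 50 counts required it was 150 of only 246 tested genes, a larger share. No paired analysis was possible because the series holds 1 group. Depth limits Mir212 most, at 19 counts in each library.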

Other observations

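Mir22 kept a nearly constant ratio to the endothelial gene Mir126a, a pair chosen after the values were seen. The ratio of counts was 0.152 (exact interval 0.151 to 0.154) in heart 1 and 0.160 (0.157 to 0.162) in heart 2, so it differed beyond counting error but by little. Against Mir451a of red blood cells the ratio of Mir22 was 0.357 (0.353 to 0.362) in heart 1 and 1.83 (1.79 to 1.88) in heart 2. With 2 libraries, one pair of ratios in step is a description.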
